A study of Mus musculus with 6 samples.

Results

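The comparison set RNA of untreated intestine against RNA of untreated brain, 2 of the 6 samples of the series, and covered 15638 genes read by probes with a value in both organs. The mice were male FVB animals of 6 to 8 weeks that carry a luciferase transgene driven by a promoter with NF-κB-responsive elements. Brain, liver and intestine were taken 3 h after a whole-body dose of 8.5 Gy of ionizing radiation or from unexposed mice. The mice of both samples described here carried the transgene, and neither organ had been irradiated. Each sample was total RNA extracted from an organ, labelled with Cy5 and read on a 1-colour oligonucleotide array of the mouse genome. The segment of the intestine and the region of the brain are not stated. The pair shows which genes set the 2 organs apart before any treatment, the state against which the irradiated organs were compared.

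There is 1 column of values per organ and treatment, whereas the methods name replicates from independent mice, and the sources leave unstated if such a column comes from 1 mouse or from several. No replicate error and no p-value could therefore be given, and every difference below is a difference between a pair of columns. The values are linear intensities of the array spots. Of 29922 probes, 29781 had a value in untreated intestine and 27017 in untreated brain, and 26941 had a value in both. The authors had normalized each organ by itself, so the deposited median was 64.5 in intestine and 103 in brain, and the lowest value was 36 in intestine and 55 in brain. The columns were therefore brought to a common distribution (quantile normalization over the shared probes) before the log2 difference, intestine minus brain, was taken. Probes with a value in a single organ could not enter this step, so their values are given as deposited and are not set against normalized ones. Other intensities below are normalized, and a gene's value is the mean on the log2 scale over its probes. A difference of at least 4-fold was called. No mark of detection comes with the values, so where the dimmer organ lies under the median of its column, 86.5 in intestine or 85.75 in brain, the fold is given as at least the brighter value over that median. Calls use the measured values, so a bound can lie under 4-fold. Levels are compared between organs for the same gene, never between genes.

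The intestine and the brain are built from different cell types. The inner surface of the intestine is a single layer of epithelial cells that is renewed from dividing cells in the crypts. Absorptive enterocytes carry a brush border of microvilli with digestive enzymes and transporters, goblet cells secrete mucus, Paneth cells secrete antimicrobial proteins, and enteroendocrine cells secrete hormones, above a wall of connective tissue, immune cells, smooth muscle and nerve plexuses. The brain is made of neurons, which signal through ion channels and synaptic vesicles, of astrocytes, which take up transmitters and buffer ions, of oligodendrocytes, which wrap axons in myelin, and of microglia, its resident macrophages. In RNA of a tissue with many cell types, fewer cells of a type and less RNA per cell cannot be told apart.

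Of the 15638 genes, 12388 (79.2%) lay within 2-fold. The normalization gives both columns the same distribution, so the median log2 difference of 0.02 was largely set by that step. The column medians, 86.5 in intestine and 85.75 in brain, stood beside lowest normalized values of 45.5 and 46. Genes dim in both organs had little room to differ, so the share within 2-fold does not show that levels were similar. At 4-fold, 552 genes (3.53%) were higher in intestine and 627 (4.01%) were lower. At 16-fold these were 99 genes (0.633%) higher and 112 (0.716%) lower, and at 64-fold 27 higher and 19 lower. Of the calls, 46.8% were upward. With the values as deposited, which differ in their medians, the median log2 difference of all genes was -0.50 and 29.4% of the calls were upward. The dimmer organ lay under its column's median in 274 of the 552 higher genes and in 320 of the 627 lower genes. For a probe past 4-fold whose gene had other probes, those other probes lay on the same side of 0 in 78.2% of 285 cases among higher probes and in 84.7% of 393 cases among lower probes. They also passed 4-fold in 54 and in 116 of these cases. Of the probes called, 136 of 808 higher probes and 131 of 973 lower probes carried no gene symbol and enter no gene count.

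**Figure D1:**
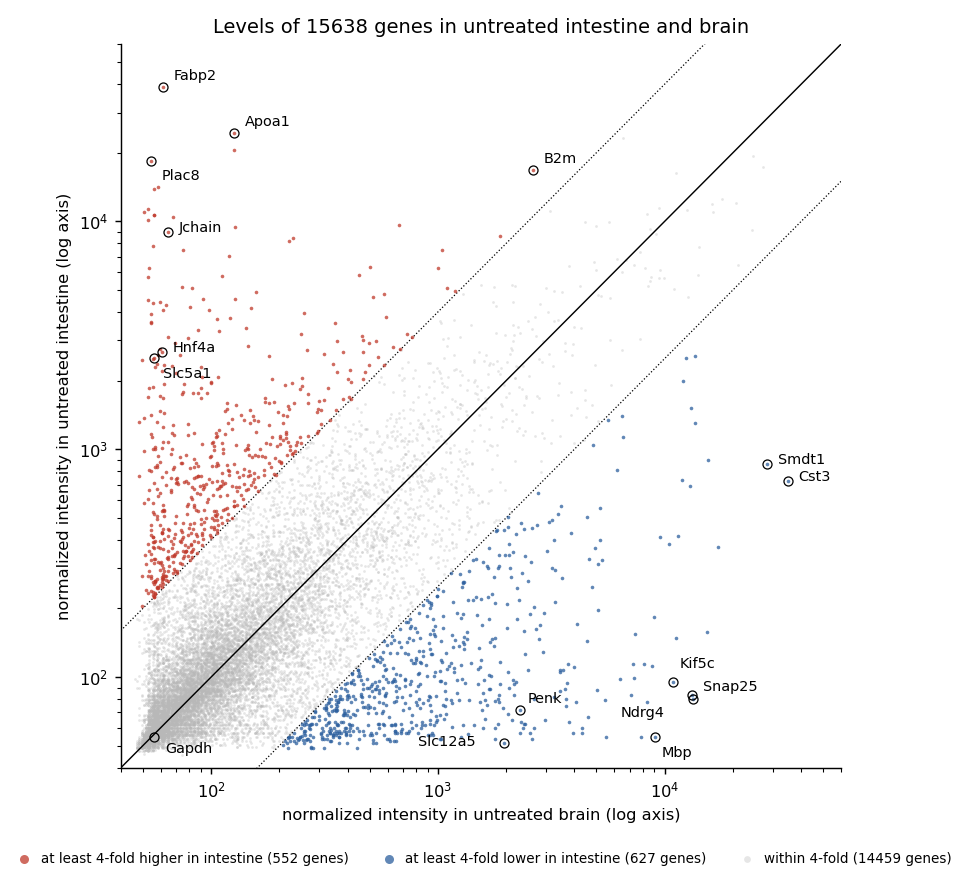
Normalized intensity of each gene in untreated intestine (vertical, log axis) and in untreated brain (horizontal, log axis), with 1 point per gene. The solid line marks equal levels and the dotted lines 4-fold. Fabp2, Plac8 and Apoa1 stand at the top left, with intestine levels of 38782, 18308 and 24474, while Mbp, Snap25 and Ndrg4 lie at the lower right with brain levels of 9018, 13190.2 and 13287.

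The labels of both organs were first set against marker genes. In the intestine, Epcam, Cdh1, Krt8, Krt19 and Lgals4 of epithelium, Vil1, Fabp2 and Apoa4 of enterocytes, Tff3 and Agr2 of goblet cells, Lyz1 and Mmp7 of Paneth cells and Actg2 of smooth muscle were each past 4-fold higher than in brain. Other markers of the intestine did not pass. Muc2, the main secreted mucin, was read by 4 probes that disagreed, with log2 differences between -0.63 and 5.38, and had 243 in intestine, against 97.6 in brain. The smooth muscle genes Acta2, Myh11 and Tagln had 311, 362 and 162 in intestine, against 102, 149 and 85.8 in brain. On the brain side, Snap25, Syt1, Nefl and Tubb3 of neurons, Aldoc of astrocytes, and Mbp and Mobp of oligodendrocytes were each past 4-fold lower in intestine. The astrocyte markers Gfap, Aqp4 and Slc1a2, the neuronal marker Map2 and the myelin marker Mog were read at 138, 85.2, 163, 77 and 369 in brain, with log2 differences between -1.47 and -0.24. Fcgbp had a value in intestine alone. Sis, Lct, Defa24, Ang4 and Rbfox3 lacked a value in at least 1 of the columns. Such an absence can mean that no probe carries the symbol, so it is no reading of a low level. Most defining genes thus lay on the side of the labels, although several textbook markers stayed within 4-fold.

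The genes with the largest differences upward were mostly products of the absorptive and secretory epithelium. Genes are ordered here by the log2 difference as measured, which for a dim organ rests on a value near the lowest and can exceed the bound. Fabp2, the intestinal fatty acid binding protein, had 38782 in intestine, against 61.5 in brain, a log2 difference of 9.30 and at least 452-fold higher. Plac8, a small cysteine-rich protein, had 18308 in intestine, against 54.5 in brain (at least 213-fold higher). Guca2b, the precursor of the peptide uroguanylin, which regulates salt and water secretion, had 13820.3 in intestine, against 56 in brain (at least 161-fold higher). Tff3, a trefoil peptide secreted with mucus, had 14166 in intestine, against 58.5 in brain (at least 165-fold higher), and Agr2, which helps mucins to fold, had 11016 in intestine, against 50.5 in brain (at least 128-fold higher). The probe listed as Pap, an older name of the antimicrobial lectin Reg3b that was also once used for another gene, had 11272 in intestine, against 52.5 in brain (at least 131-fold higher). Apoa1, the main protein of high-density lipoprotein, had 24474 in intestine, against 126 in brain (195-fold higher), and Fabp1, a fatty acid binding protein of liver and gut, had 20629 in intestine, against 126 in brain (164-fold higher). In these last 2 genes the brain values lay above the median of their column, so their folds are measured on both sides. The rest of the 15 were the trypsin inhibitor Spink1, Krt8, the galectins Lgals4 and Lgals2, Spink4, Jchain and Krt20, with intestine levels between 6247 (Krt20) and 10658 (Krt8) and brain levels between 52.5 (Spink1) and 68 (Spink4).

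The genes with the largest differences downward belonged to myelin, neurons and astrocytes. Mbp, the myelin basic protein, had 54.5 in intestine, against 9018 in brain, a log2 difference of -7.37 (at least 104-fold lower). By the bounds, Ndrg4 and Snap25 stood above Mbp. Ndrg4, a protein of neurons, had 80.5 in intestine, against 13287 in brain (at least 154-fold lower). Snap25, a component of the machinery that fuses synaptic vesicles with the membrane, was read by 2 probes and had 83.7 in intestine, against 13190.2 in brain (at least 152-fold lower). Ddn, dendrin, a protein of dendrites, had 54.5 in intestine, against 7860.5 in brain (at least 90.9-fold lower), and Kif5c, a kinesin motor of axons, had 94.8 in intestine, against 10837 in brain (114-fold lower). The related membrane proteins Gpm6a and Gpm6b had 77.8 and 158 in intestine, against 8343 and 15421 in brain. The remaining 8 of the 15 were Cplx1, Hpcal4, Rtn1, Mlc1, Camk2n1, Pfn2, Fabp7 and Vsnl1, with intestine levels between 54.5 (Cplx1) and 149 (Camk2n1) and brain levels between 4307 (Fabp7) and 11272 (Camk2n1).

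**Figure D2:**
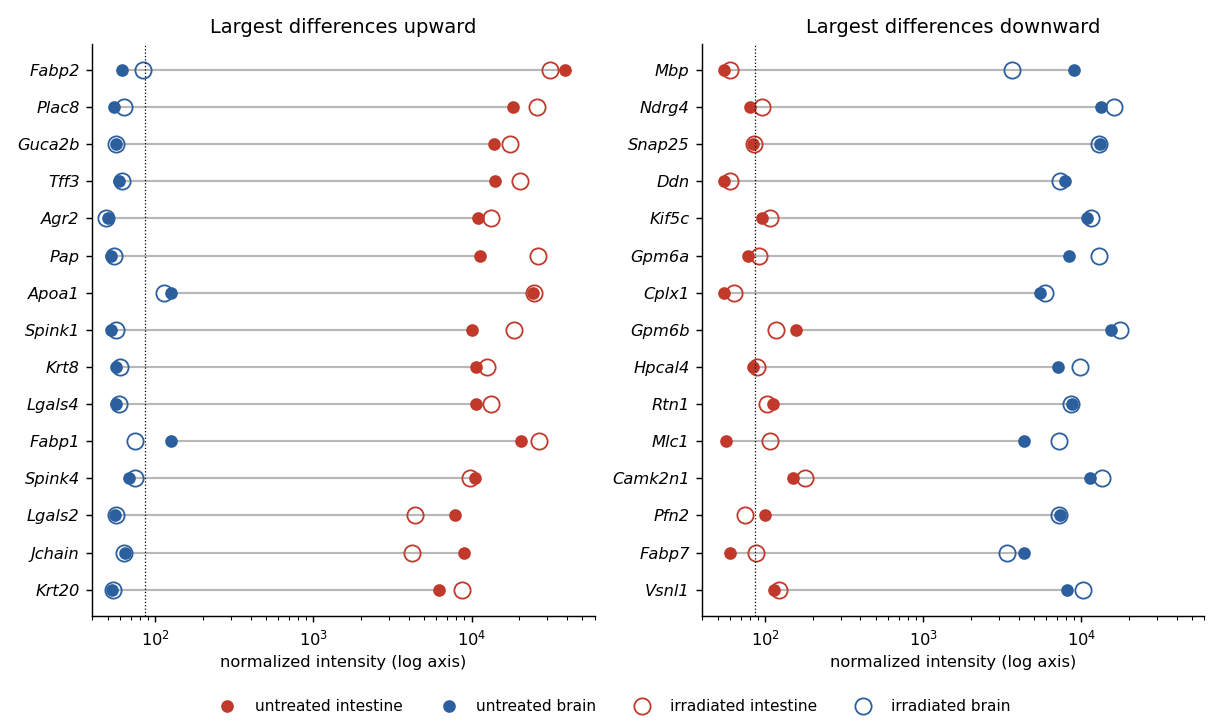
Normalized intensity (log axis) of the 15 genes with the largest difference upward (left panel) and downward (right panel). Filled red points are untreated intestine and filled blue points untreated brain, with a line between them. Open circles are the same organs 3 h after 8.5 Gy, and the dotted line marks the column medians. In each of the 30 genes the intestine and brain points stay on their sides in irradiated organs, with Mbp at 59.8 in irradiated intestine and 3658 in irradiated brain.

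The promoters of these genes were read to show what the genes at both ends share in sequence beyond their level. The annotation gives a window of 250 bases before and 50 bases after the transcription start for 12533 of the 15638 genes. For a gene with several annotated starts the most upstream was taken, which need not be the start in use in these organs. Below are the windows of the 3 genes with the largest difference each way that have one, from RefSeq on GRCm38.p6, read 5′ to 3′ on the strand of the gene. Capitals mark each CG dinucleotide, the site of DNA methylation, which is frequent in the promoters of widely used genes and sparse in those of many tissue-restricted genes. Fabp2 lies at chr3:122894822-122895121 (plus strand), Plac8 at chr5:100572156-100572455 (minus strand) and Guca2b at chr4:119658896-119659195 (minus strand). Ndrg4 lies at chr8:95676724-95677023 (plus strand), Kif5c at chr2:49619036-49619335 (plus strand) and Gpm6a at chr8:54779184-54779483 (plus strand).
Fabp2: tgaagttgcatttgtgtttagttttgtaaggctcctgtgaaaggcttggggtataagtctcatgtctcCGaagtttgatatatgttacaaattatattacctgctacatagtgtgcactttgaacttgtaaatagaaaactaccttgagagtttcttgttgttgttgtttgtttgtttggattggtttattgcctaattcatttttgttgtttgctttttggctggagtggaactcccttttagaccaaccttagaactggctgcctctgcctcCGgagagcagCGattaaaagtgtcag
Plac8: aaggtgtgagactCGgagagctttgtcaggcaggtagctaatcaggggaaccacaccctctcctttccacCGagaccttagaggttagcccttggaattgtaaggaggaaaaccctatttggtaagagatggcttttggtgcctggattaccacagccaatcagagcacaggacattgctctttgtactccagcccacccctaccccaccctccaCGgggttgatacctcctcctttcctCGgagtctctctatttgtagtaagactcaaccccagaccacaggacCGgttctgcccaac
Guca2b: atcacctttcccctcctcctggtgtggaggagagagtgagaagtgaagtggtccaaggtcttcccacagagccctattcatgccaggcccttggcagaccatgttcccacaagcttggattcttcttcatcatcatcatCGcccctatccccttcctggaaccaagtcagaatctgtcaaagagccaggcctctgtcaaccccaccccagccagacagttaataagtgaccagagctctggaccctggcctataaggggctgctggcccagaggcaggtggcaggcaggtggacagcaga
Ndrg4: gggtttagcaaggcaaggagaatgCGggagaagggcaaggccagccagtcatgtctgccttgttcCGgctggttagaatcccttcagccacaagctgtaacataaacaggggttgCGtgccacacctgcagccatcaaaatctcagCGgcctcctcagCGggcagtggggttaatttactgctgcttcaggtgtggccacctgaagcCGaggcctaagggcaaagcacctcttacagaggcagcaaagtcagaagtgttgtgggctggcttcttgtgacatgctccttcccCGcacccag
Kif5c: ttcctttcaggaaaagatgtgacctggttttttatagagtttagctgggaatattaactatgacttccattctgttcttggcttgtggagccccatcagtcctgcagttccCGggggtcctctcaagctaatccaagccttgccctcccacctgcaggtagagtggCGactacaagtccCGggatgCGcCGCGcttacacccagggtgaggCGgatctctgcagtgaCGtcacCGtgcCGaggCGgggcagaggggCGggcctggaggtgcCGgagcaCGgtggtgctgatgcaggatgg
Gpm6a: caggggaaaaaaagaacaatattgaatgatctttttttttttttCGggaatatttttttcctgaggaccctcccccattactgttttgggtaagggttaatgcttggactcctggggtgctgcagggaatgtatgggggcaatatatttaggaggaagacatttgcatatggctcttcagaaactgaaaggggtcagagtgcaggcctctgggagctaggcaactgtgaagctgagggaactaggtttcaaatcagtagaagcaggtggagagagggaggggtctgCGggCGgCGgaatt

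These windows hold 3 CG dinucleotides in Fabp2, 5 in Plac8 and 1 in Guca2b, against 7 in Ndrg4, 14 in Kif5c and 4 in Gpm6a. Among the 15 genes each way, 11 higher genes had a window, with 1 to 7 CG dinucleotides (median 4), and 11 lower genes had one, with 3 to 45 (median 14). Over all measured genes the median ratio of observed to expected CG dinucleotides was 0.68. It was 0.28 in the 75 windows of genes at least 16-fold higher in intestine and 0.50 in the 441 windows of genes at least 4-fold higher. It was 0.61 in the 86 windows of genes at least 16-fold lower and 0.70 in the 489 windows of genes at least 4-fold lower. A ratio over 0.6 was found in 12% of windows of the genes 16-fold higher and in 54.7% of those 16-fold lower, against 58.1% of all. By their medians, the genes highest in intestine had CG-poorer windows than the whole, and the genes lowest in intestine lay nearer to it.

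Short motifs were searched in the same windows on both strands. TATAAA, the core of the TATA box, was found in 14.7% of windows of the genes 16-fold higher, in 14% of those 16-fold lower and in 10.5% of all. TTTATNG, a form of the site of the gut factor CDX2 that can overlap a TATA box, was found in 18.7% of windows of the genes 16-fold higher and in 6.98% of those 16-fold lower, against 8.79% of all. AGATAA, which factors of the GATA family read, was found in 14.7%, in 5.81% and in 8.39% of the same sets. The window of Fabp2 printed above holds TTTATNG at position -65 from the start, and that of Fabp1 holds it at -227, -133 and -89 beside TATAAA at -30. Among the lower genes, the window of Kif5c printed above holds TTTATNG and TATAAA, both at -220. Agr2 holds TTTATNG at -48, Lgals2 at -68 and Krt20 at -30, where it overlaps TATAAA at -29. Longer strings were also searched. CAAAGTCCA, a site of the gut and liver factor HNF4, was found in none of the windows of the 16-fold sets, in 1.13% of those 4-fold higher, in none of those 4-fold lower and in 0.399% of all. TTCAGCACC, part of the site of the neuronal repressor REST, was found in none of the windows of genes 16-fold higher, in 1.16% of those 16-fold lower, in 0.227% of those 4-fold higher, in 1.43% of those 4-fold lower and in 0.423% of all. At 4-fold, higher against lower, the shares were 13.2% and 7.57% for TATAAA, 11.1% and 5.11% for TTTATNG, and 9.07% and 7.57% for AGATAA. The shares of both longer strings rest on few windows. CAAAGTCCA was found in 5 windows of genes 4-fold higher. TTCAGCACC was found in 1 window of genes 4-fold higher and in 7 of those 4-fold lower. In the genes 16-fold lower it was found in 1 window. Each match is a string of letters and not a measured binding site.

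**Figure D3:**
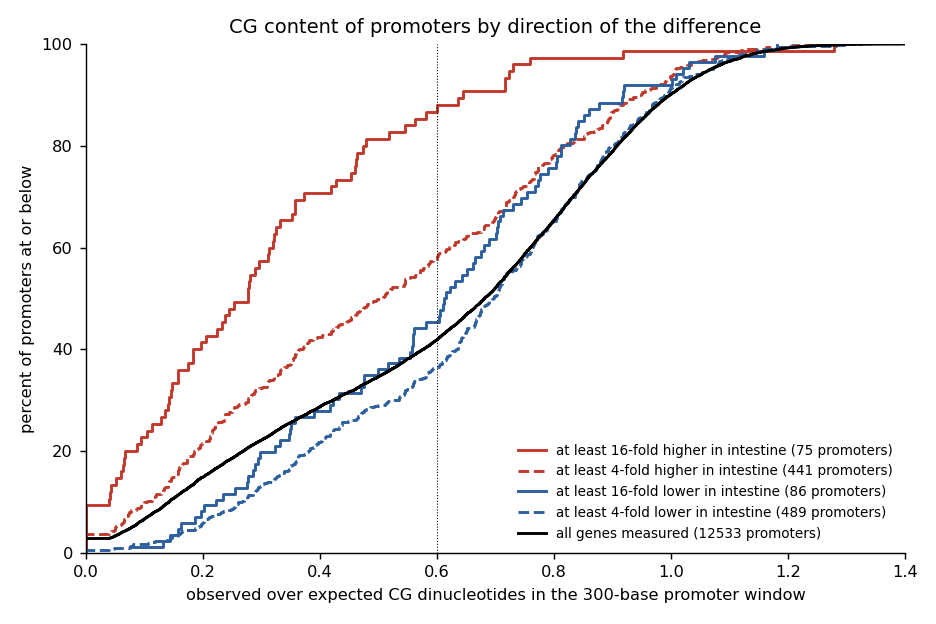
Share of promoters (vertical, percent) at or below each ratio of observed to expected CG dinucleotides (horizontal, no unit) in the window of 300 bases. Red lines are genes higher in intestine, blue lines genes lower, and the black line all measured genes, with solid coloured lines for 16-fold and dashed lines for 4-fold. The solid red line stands apart to the left, with a median ratio of 0.28, against 0.61 for the solid blue line and 0.68 for all genes.

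Genes that build the brush border were higher in intestine. Of 12 measured genes of that list, 8 were past 4-fold higher, where 3.53% of all genes were, and none was lower, with a median log2 difference of 2.76. Cdhr5, a protocadherin that links the tips of microvilli, had 4359 in intestine, against 55.5 in brain (at least 50.8-fold higher). Vil1, villin, which bundles actin in microvilli, had 2299 in intestine, against 56.8 in brain (at least 26.8-fold higher), and Pls1, another bundling protein, had 3776 in intestine, against 121 in brain (31.1-fold higher). Myo1a, the motor that ties the bundle to the membrane, had 876 in intestine, against 59.8 in brain (at least 10.2-fold higher). Myo7b and Ush1c, partners in the same tip complex, were past 4-fold as well, with intestine levels of 445 and 1499.8 and brain levels of 64.5 and 220.5. Ush1c was thus above the median of the brain column.

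Digestive enzymes on the surface of enterocytes followed. Of 10 measured hydrolases, 8 were higher and none lower, with a median of 2.98. These were peptidases and related enzymes. Xpnpep2, which removes the amino acid before a proline, had 1410 in intestine, against 54.5 in brain (at least 16.4-fold higher), and Ggt1, which cleaves glutathione, had 1469 in intestine, against 59.8 in brain (at least 17.1-fold higher). Dpp4, which cuts dipeptides from peptides, had 839 in intestine, against 56.8 in brain (at least 9.79-fold higher). Enpep and Anpep, aminopeptidases of the brush border, had 697 and 621 in intestine, against 63 and 58.5 in brain. Alpi, the intestinal alkaline phosphatase, Treh, which splits trehalose, Mep1a, Akp3, Cpa1 and Tmprss15 had a value in intestine alone. Of these, Alpi and Treh were bright, with deposited intensities of 4518 and 2163, and the other 4 lay between 42.5 (Cpa1) and 112 (Mep1a).

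Among 25 measured nutrient transporters, 11 were higher and none lower, and the median was 1.47. With the values as deposited, 6 were higher. Slc5a1, the sodium-coupled glucose carrier, had 2504 in intestine, against 56 in brain (at least 29.2-fold higher). Slc51a, a subunit of the bile acid exporter, had 2210.5 in intestine, against 60.8 in brain (at least 25.8-fold higher), and Slc7a7, an exporter of basic amino acids, had 1280.5 in intestine, against 68 in brain (at least 14.9-fold higher). The sugar carriers Slc2a2 and Slc2a5, for glucose and fructose, had 578 and 867 in intestine, against 50.5 and 85.8 in brain. Slc6a19, the main carrier of neutral amino acids, had 616 in intestine, against 81.4 in brain (at least 7.19-fold higher). Slc7a9, a carrier of cystine, and Slc26a3, a chloride-bicarbonate exchanger, had values in intestine alone, with deposited intensities of 2184 and 1315. Slc10a2, the bile acid carrier of the ileum, had a deposited 43.5 there, where the lowest deposited value was 36.

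Lipid absorption genes held the largest difference of all. Of 24 measured, 13 were higher and none lower, with a median of 2.20. Beside Fabp2, Apoa1 and Fabp1 above, Apoc3, an inhibitor of lipoprotein breakdown, had 4069 in intestine, against 61.5 in brain (at least 47.5-fold higher). Apoa4, a protein of newly made chylomicrons, had 8205 in intestine, against 219.5 in brain (37.4-fold higher). A second probe of Apoa4 had a value in intestine alone. Mttp, which loads lipid onto apolipoprotein B, had 815 in intestine, against 68 in brain (at least 9.51-fold higher). The list thus moved in its carriers and in its lipoproteins alike, although 11 of its 24 genes stayed within 4-fold.

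Enzymes that handle foreign compounds were higher as a group, with 16 of 31 measured past 4-fold, none lower and a median of 2.08. Cyp3a13, a cytochrome P450 of the gut, had 1859 in intestine, against 53.5 in brain (at least 21.7-fold higher). Sult1b1, a sulfotransferase read by 2 probes, had 1127 in intestine, against 55 in brain (at least 13.1-fold higher), and Cyp4v3, a fatty acid hydroxylase, had 2831 in intestine, against 146 in brain (19.4-fold higher). Cyp2c65, Ugt2b34 and Ces2a, a further P450, a glucuronosyltransferase and a carboxylesterase, had 807, 805 and 849.8 in intestine, against 53.5, 54.5 and 58 in brain. Levels within the P450, sulfotransferase and glucuronosyltransferase families are uncertain, since a probe can read near-identical members.

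Secretory cells of the epithelium were well represented. Of 14 goblet cell genes, 8 were higher (5 as deposited) and none lower, with a median of 2.26. Spink4, a protease inhibitor of goblet cells, had 10462 in intestine, against 68 in brain (at least 122-fold higher), and Zg16, a lectin of mucus, had 7069 in intestine, against 120.2 in brain (58.8-fold higher). Retnlb, a bactericidal hormone-like protein of goblet cells, had 1312 in intestine, against 48.2 in brain (at least 15.3-fold higher). Muc13, a mucin of the cell surface, had a value in intestine alone, a deposited 8478 in the brighter of its 2 probes, whereas Fcgbp, a partner of the mucins, had a deposited 45.5 there. Muc2 and Tff3, both goblet cell products, thus differed in their distance between the organs, with log2 differences of 1.32 and 7.92.

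Of 9 measured Paneth cell genes, 7 were higher and none lower. Their median of 5.28 was the highest of the 50 lists. It held for few genes, since 28 had been listed. Of these, 2 had a value in intestine alone. Another 17, among them the defensins, had no probe under their symbol with a value in intestine, so their level was not read. Guca2b, described above as a regulator of salt and water secretion, is counted in this list, and its cell of origin was not tested. Mmp7, the protease that activates the defensins, had 5710.5 in intestine, against 52.5 in brain (at least 66.6-fold higher), and Pla2g2a, an antibacterial phospholipase, had 7449 in intestine, against 75.5 in brain (at least 86.9-fold higher). Reg3g, an antimicrobial lectin, had 4524 in intestine, against 52.5 in brain (at least 52.8-fold higher), and Lyz1, the lysozyme of Paneth cells, had 3081 in intestine, against 79.2 in brain (at least 35.9-fold higher). Its probe may also read Lyz2, the near-identical lysozyme of macrophages, which had 928 in intestine, against 72.8 in brain. Itln1, a lectin of Paneth and goblet cells, and Mptx1, a pentraxin of the intestine, had deposited values in intestine alone of 27546 and 7625.

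The hormone-secreting cells went both ways, and many of their genes are known from neurons too. Of 27 enteroendocrine and tuft cell genes, 3 were higher (5 in irradiated organs), 6 were lower, and the median was -0.38. The higher genes encode hormones of the gut. Sct, secretin, had 650.4 in intestine, against 66.5 in brain (at least 7.58-fold higher), Gip, the incretin of the upper intestine, had 1065 in intestine, against 112 in brain (9.48-fold higher), and Gcg, from which the gut makes GLP peptides, had 330.5 in intestine, against 56 in brain (at least 3.85-fold higher). The lower genes are those that neurons use as well. Scg3 and Scg5, proteins of secretory granules, had 59.8 and 144 in intestine, against 2650 and 4526 in brain. Sst, somatostatin, had 519.8 in intestine, against 3381 in brain (6.5-fold lower), and Scg2 and Cck were also past 4-fold lower, at log2 differences of -2.61 and -2.58. The level of Sst in intestine nevertheless stood well above the median of that column.

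Among transcription factors of the gut epithelium, 8 of 25 were higher and none lower, with a median of 0.88. Hnf4a, a nuclear receptor of liver and gut epithelium, had 2671 in intestine, against 60.8 in brain (at least 31.1-fold higher). Creb3l3, a factor of lipid metabolism released from the endoplasmic reticulum, had 1567 in intestine, against 128 in brain (12.2-fold higher), and Isx, an intestinal homeobox factor, had 607 in intestine, against 52.5 in brain (at least 7.08-fold higher). Nr1h4, the bile acid receptor, had 567 in intestine, against 61.5 in brain (at least 6.61-fold higher), Klf5, a factor of crypt cells, had 963 in intestine, against 113 in brain (8.54-fold higher), and Vdr, the vitamin D receptor, had 383 in intestine, against 68.2 in brain (at least 4.46-fold higher). Cdx2, the homeobox factor that defines intestinal epithelium, had a value in intestine alone, a deposited 372, as did Atoh1, the factor of secretory cells, with a deposited 148. The 29 measured Hox genes, which mark position along the body axis, had none past 4-fold and a median of 0.03.

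The keratins and junctions of simple epithelia held the most genes past 4-fold of the intestinal lists, with 20 of 40 genes past 4-fold higher, none lower and a median of 2.05. Krt8 and Krt20, filament proteins of simple epithelium, had 10658 and 6247 in intestine, against 56 and 53.5 in brain. Lgals4, a galectin of enterocytes, was read by 2 probes with log2 differences of 7.22 and 7.91. Epcam, an adhesion protein of epithelia, had 4436 in intestine, against 59.8 in brain (at least 51.7-fold higher), and Cdh1, the cadherin of their junctions, had 5102 in intestine, against 82 in brain (at least 59.5-fold higher). Cldn7, a claudin that seals the space between cells, had 5133 in intestine, against 74.5 in brain (at least 59.9-fold higher).

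Some genes of dividing cells were higher in intestine. Of 35 mitotic genes, 10 were higher and none lower (6 and 1 as deposited), with a median of 0.98, and of 40 genes of DNA replication 4 were higher and none lower, with a median of 0.82. Ube2c, the enzyme that tags mitotic cyclins for destruction, had 1213 in intestine, against 108 in brain (11.2-fold higher), and Pttg1, securin, had 825 in intestine, against 80.5 in brain (at least 9.62-fold higher). Plk1, a mitotic kinase, had 705 in intestine, against 94.8 in brain (7.44-fold higher), and Cenpa, the histone of centromeres, had 605 in intestine, against 82 in brain (at least 7.06-fold higher). The replication genes past 4-fold were the helicase subunits Mcm6 and Mcm5, the polymerase subunit Pold2 and the licensing factor Cdt1, with log2 differences between 2.04 and 2.24. With the values as deposited none of the 40 passed, and in irradiated organs these 4 had between 1.51 (Pold2) and 1.87 (Mcm5). Cdt1 and Mcm5, dim in brain, were at least 2.89-fold and at least 3.94-fold higher in untreated intestine. Of 18 crypt stem and Wnt target genes, Smoc2 and Slc12a2 were higher, at 385 in intestine, against 81.4 in brain for Smoc2 and 1288 in intestine, against 307 in brain for Slc12a2, and Lgr5, the stem cell marker, had a deposited value of 46.5 in intestine alone. As deposited none of the 18 was higher and 1 was lower, and in irradiated organs neither Smoc2 nor Slc12a2 passed, with 1.51 for Slc12a2. The median of that list was 0.39.

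Immune genes were read in lists by cell type and function. Jchain, which joins the units of secreted IgA, had 8979 in intestine, against 64.8 in brain (at least 105-fold higher), and Pigr, which carries IgA across the epithelium, had a deposited value of 1298 in intestine alone. Ccl25, the chemokine that draws lymphocytes to the small intestine, had 1756 in intestine, against 87.5 in brain (20.1-fold higher), and Ccl20 had 372 in intestine, against 55.5 in brain (at least 4.33-fold higher). Of 15 genes of mucosal defence 5 were higher and none lower, with a median of 0.96. Of 10 genes of MHC class II antigen presentation, H2-Aa and Cd74 were higher, with 4087 in intestine, against 98 in brain for H2-Aa and 1856 in intestine, against 90.5 in brain for Cd74, while H2-Eb1 had 257 in intestine, against 175 in brain. Among 20 B cell genes, Cd79b and Mzb1 were higher and the median was 0.69. As deposited 1 of the 20 was higher, and in irradiated organs none was, with -0.09 for Cd79b, 0.47 for Mzb1 and a list median of 0.17. Among 18 T cell genes, Ptprc, the leukocyte common antigen, was higher at 466 in intestine, against 54.5 in brain, and the median was 0.41. A second probe of Ptprc was dim, with a deposited 41.5 in intestine alone. The cytotoxic proteases Gzma and Gzmb had deposited values of 426 and 688 in intestine alone. Of 19 macrophage genes, Lyz2 was higher and none was lower (3 higher in irradiated organs), with a median of -0.07. Of 13 microglia genes, P2ry12, the nucleotide receptor of resting microglia, was lower at 61.5 in intestine, against 621 in brain (at least 7.18-fold lower), the other 12 stayed within 4-fold, and each of the 13 lay below 0, with a median of -0.65. In untreated organs the B cell, T cell, macrophage and microglia lists held 1 or 2 calls each, beside 3.53% higher and 4.01% lower over all genes. These counts alone do not set the cell types apart. With the values as deposited the median of the T cell list changed sign, and those of the B cell, mucosal and class II lists did not.

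The muscle and connective tissue of the intestinal wall stood out less than its epithelium. Of 23 smooth muscle genes, 5 were higher, 1 was lower, and the median was 0.92. As deposited 2 were higher, and neither with median scaling nor in irradiated organs was any lower. Actg2, the actin of enteric smooth muscle, had 1715 in intestine, against 59.8 in brain (at least 20-fold higher), and Tpm2, a tropomyosin, had 2296 in intestine, against 90 in brain (25.5-fold higher). The gene that went the other way was Pcp4, a calmodulin regulator that Purkinje cells also use, at 212 in intestine, against 932 in brain, but its 2 probes disagreed in direction, at -5.86 and 1.58. Of 32 fibroblast and matrix genes, 4 were higher (1 as deposited) and 1 was lower, with a median of 0.37. The count lower is near the share of 4.01% over all genes. Dpt, Postn, Fbln1 and Col3a1, proteins of the extracellular matrix, had log2 differences between 2.15 and 2.81. The 2 probes of Col3a1 stood at 0.00 and 4.29, and this gene, dim in brain, was at least 3.14-fold higher. By contrast, Thy1, a surface protein that neurons carry too, had 117 in intestine, against 1870 in brain (16-fold lower). None of 20 endothelial genes passed 4-fold. Their range ran between -1.29 in Slco1a4, a carrier of the blood-brain barrier, and 1.29 in Lyve1, a marker of lymphatic vessels. Genes of enteric neurons and glia are used in the brain as well. Of 18 measured, none was higher and 4 were lower, and S100b, Uchl1, Nefm and Elavl4 led with log2 differences of -5.71, -4.30, -2.61 and -2.22.

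**Figure D4:**
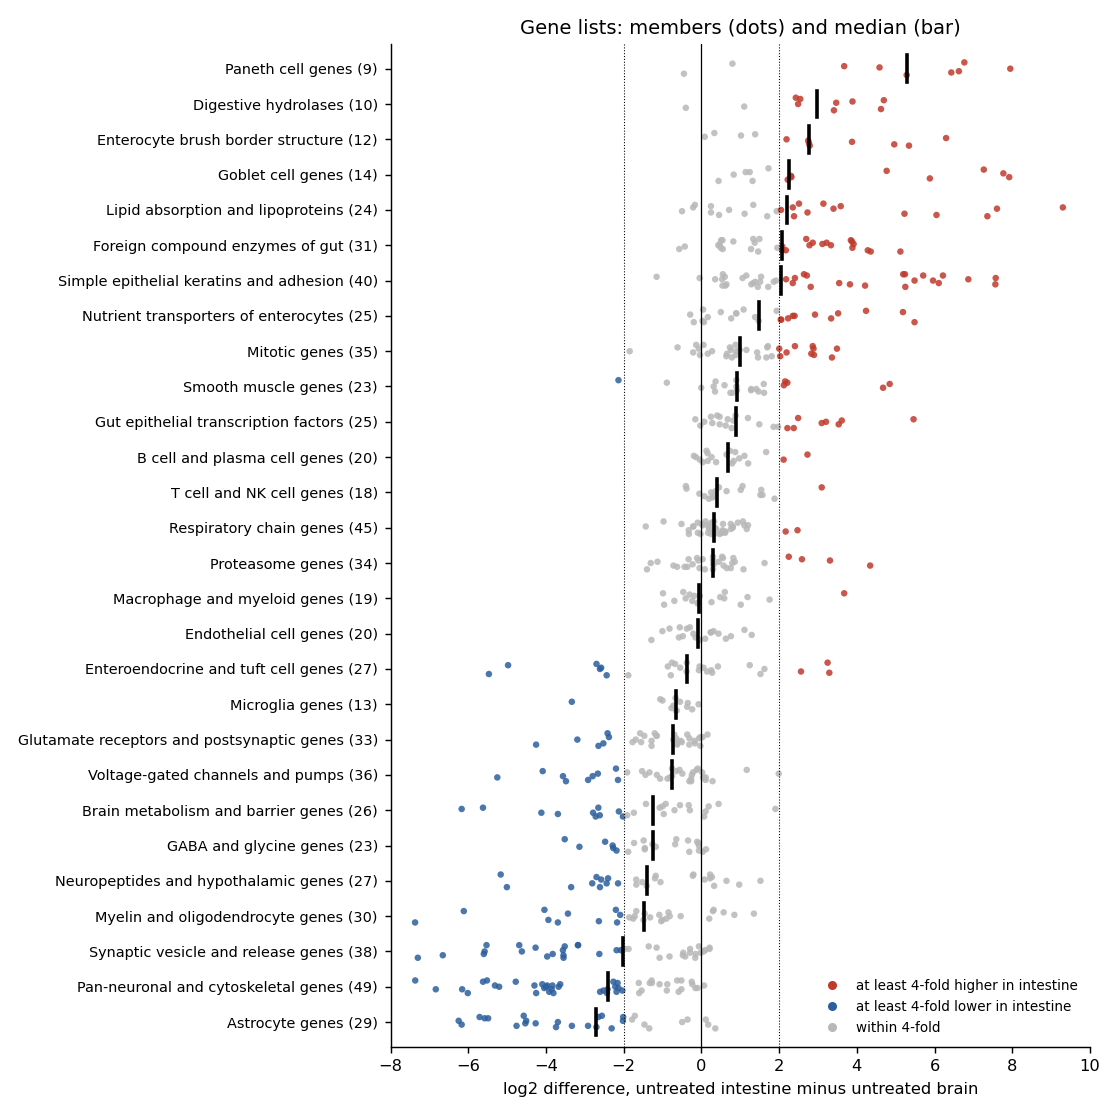
Log2 difference, untreated intestine minus untreated brain (horizontal), of the members of 28 gene lists, ordered by their median (black bar), with the number of measured genes in brackets. Red dots are genes at least 4-fold higher in intestine, blue dots genes at least 4-fold lower, and grey dots genes within 4-fold, and the dotted lines mark 4-fold. Paneth cell genes stand highest, with a median of 5.28, and astrocyte genes lowest, with a median of -2.70.

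On the brain side, the list of general neuronal genes held the most genes past 4-fold. Of 49 pan-neuronal and cytoskeletal genes, 31 were lower in intestine, where 4.01% of all genes were, and none was higher, with a median of -2.42. Hpca, the calcium sensor hippocalcin, had 98.5 in intestine, against 6365 in brain (64.6-fold lower), and Vsnl1, a related sensor read by 2 probes, had 114 in intestine, against 8117 in brain (71.5-fold lower). Eno2, the enolase of neurons, had 74.5 in intestine, against 3671 in brain (at least 42.4-fold lower), and Gap43, a protein of growing axons, had 64.8 in intestine, against 2970.5 in brain (at least 34.3-fold lower). The list was not uniform. Map2, a protein of dendrites, had 65.4 in intestine, against 77 in brain, with log2 differences of its 3 probes between -0.44 and -0.05.

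Proteins of the synaptic vesicle and its release followed, with 19 of 38 lower, none higher and a median of -2.03. Cplx1, complexin, which clamps the fusion of vesicles, had 54.5 in intestine, against 5499 in brain (at least 63.6-fold lower). Synpr, a membrane protein of the vesicle, had 53.5 in intestine, against 2597 in brain (at least 30-fold lower), and Rab3a, the GTPase of vesicle docking, had 155 in intestine, against 7416 in brain (47.8-fold lower). Vamp2, the vesicle partner of Snap25, had 373 in intestine, against 17248 in brain (46.3-fold lower), and Syt1, the calcium sensor of release, had 83.7 in intestine, against 2159 in brain (at least 25-fold lower). Vamp2 kept an intestine level above the median of that column, while Cplx1 and Synpr lay near its lowest values.

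Fewer receptor genes passed 4-fold. Of 33 glutamate receptor and postsynaptic genes, 6 were lower (10 as deposited) and none higher, with a median of -0.72. Dlgap1, a scaffold of the postsynaptic density, had 60.4 in intestine, against 1153 in brain (at least 13.3-fold lower), and Arc, which is made in active synapses, had 66.5 in intestine, against 609 in brain (at least 7.04-fold lower). The receptor subunits Gria1 and Gria2 had 74.2 and 63.2 in intestine, against 466 and 329.5 in brain. Of 23 genes of GABA and glycine signalling, 6 were lower and none higher, with a median of -1.26. Slc32a1, which loads GABA into vesicles, had 93.8 in intestine, against 1075 in brain (11.5-fold lower), and Gabrb2, part of the GABA-A receptor, had 62 in intestine, against 546 in brain (at least 6.32-fold lower).

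Genes of monoamine, acetylcholine and opioid signalling held few calls. Of 31, 2 were higher and 2 lower (1 and 4 as deposited), and the median was -0.15. These counts are not far from the shares over all genes, 3.53% higher and 4.01% lower. Maoa, which breaks down serotonin and noradrenaline, had 1460.4 in intestine, against 198 in brain (7.37-fold higher), and Ddc, which makes serotonin and dopamine from their precursors, had 421 in intestine, against 79.4 in brain (at least 4.91-fold higher). Both enzymes are made in gut epithelium as well as in the brain. Gng7 and Rgs9, signalling proteins of the striatum, had 58 and 148 in intestine, against 645 and 833 in brain. The serotonin transporter Slc6a4 had 209 in intestine, against 58 in brain, which is under 4-fold.

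Among neuropeptides and the enzymes that cut them, 10 of 27 were lower and none higher (1 higher in irradiated organs), with a median of -1.41. Cpe, the carboxypeptidase that trims peptides, had 111 in intestine, against 3978 in brain (35.9-fold lower), and Penk, the precursor of enkephalins, had 71.8 in intestine, against 2309 in brain (at least 26.7-fold lower). Npy, neuropeptide Y, had 73 in intestine, against 747 in brain (at least 8.63-fold lower), and Pcsk2, a convertase of peptide precursors, had 78 in intestine, against 547 in brain (at least 6.33-fold lower). Nts, neurotensin, a peptide of both organs, was the member farthest the other way, at 662 in intestine, against 231 in brain.

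Of 36 voltage-gated channels and pumps, 9 were lower and none higher (1 higher with median scaling), and the median was -0.76. Slc12a5, the chloride exporter of mature neurons, had 51.5 in intestine, against 1966 in brain (at least 22.7-fold lower). Kcnab2, a helper subunit of potassium channels, had 101 in intestine, against 1715 in brain (17-fold lower), and Hcn2, a pacemaker channel, had 105 in intestine, against 1178 in brain (11.2-fold lower). Kcnip4, which modulates fast potassium currents, had 58 in intestine, against 686 in brain (at least 7.93-fold lower). Kcnj4 was the member farthest the other way, at 787 in intestine, against 198 in brain, just under 4-fold.

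Astrocyte genes had the lowest median of the 50 lists, -2.70, with 20 of 29 lower and none higher. Mlc1, a membrane protein of astrocyte endfeet, had 56.8 in intestine, against 4314 in brain (at least 49.9-fold lower), and Fabp7, the fatty acid binding protein of brain, had 59.8 in intestine, against 4307 in brain (at least 49.8-fold lower). S100b, a calcium-binding protein of astrocytes, had 77.8 in intestine, against 4069 in brain (at least 47-fold lower), and Gjb6, a gap junction protein, had 56.8 in intestine, against 2551 in brain (at least 29.5-fold lower). Cst3, cystatin C, an inhibitor of proteases, had 728 in intestine, against 34824 in brain (47.9-fold lower). Glul, which turns glutamate into glutamine, had 385 in intestine, against 10432 in brain (27.1-fold lower), so that both Cst3 and Glul were well above the column median in intestine too.

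Of 30 myelin and oligodendrocyte genes, 10 were lower and none higher, with a median of -1.48. Beside Mbp, Cldn11, the claudin of myelin, had 56.8 in intestine, against 3938 in brain (at least 45.5-fold lower), and Olig1, a transcription factor of the lineage, had 102 in intestine, against 1676 in brain (16.5-fold lower). Mal, a lipid raft protein of myelin, had 64.8 in intestine, against 994 in brain (at least 11.5-fold lower), and Car2, a carbonic anhydrase of oligodendrocytes, had 271 in intestine, against 3513 in brain (13-fold lower). Enpp2, autotaxin, had 109 in intestine, against 1183 in brain (10.8-fold lower). The member farthest the other way was Aspa, which breaks down acetylaspartate, at 989.8 in intestine, against 388 in brain.

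The region of the brain that the RNA came from is not stated, and genes of several regions were read. Of 26 forebrain genes, 10 were lower in intestine (16 as deposited) and none higher, with a median of -1.72, and of 18 cerebellar genes 3 were lower (5 as deposited) and none higher, with a median of -0.46. Egr1, an activity-dependent factor, had 196 in intestine, against 5069 in brain (25.8-fold lower), Nrn1, neuritin, had 111 in intestine, against 1532 in brain (13.8-fold lower), and Tbr1, a factor of cortical projection neurons, had 147 in intestine, against 1341 in brain (9.14-fold lower). Among cerebellar genes, Itpr1, the calcium release channel abundant in Purkinje cells, had 165 in intestine, against 2021 in brain (12.3-fold lower), and Pvalb, parvalbumin, had 158 in intestine, against 1338 in brain (8.46-fold lower). Choroid plexus genes differed from these lists, with 2 of 13 higher in intestine, none lower (1 as deposited) and a median of 0.18. These were Aqp1, a water channel, at 2084 in intestine, against 108 in brain, and Rarres2, the chemokine-like chemerin, at 1745 in intestine, against 268 in brain. Ttr, the most abundant product of the choroid plexus, had 255 in intestine, against 196 in brain, and Kl and Folr1 were under the column medians in both organs, so that markers of this tissue were dim in this brain sample. Of 32 neural transcription factors, 7 were lower (11 as deposited, 4 with median scaling) and none higher, with a median of -0.83. Camta1 and Id4 had 75.5 and 81.4 in intestine, against 925 and 693 in brain.

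Metabolic genes of the brain were lower in 10 of 26 cases and higher in none (1 higher as deposited and with median scaling), with a median of -1.25. Apoe, the main lipid carrier of the brain, had 400.2 in intestine, against 5186 in brain (13-fold lower), and Fabp3, a fatty acid binding protein of neurons and muscle, had 79.2 in intestine, against 1378 in brain (at least 15.9-fold lower). Slc2a3, the glucose carrier of neurons, had 71.8 in intestine, against 440.1 in brain (at least 5.09-fold lower), and Mt3, the metallothionein of brain, had 131 in intestine, against 823 in brain (6.29-fold lower). Ckmt1, a mitochondrial creatine kinase of both organs, was the member farthest the other way, at 4814 in intestine, against 1288 in brain.

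Families in which the organs use different members were set side by side, in 21 pairs chosen for a form known from intestine and a form known from brain. In 7 of them the intestinal form was past 4-fold higher and the brain form past 4-fold lower. For fatty acid binding proteins these were Fabp2 (9.30) and Fabp7 (-6.17), and Fabp1 (7.36) and Fabp3 (-4.12), all as log2 differences. For claudins they were Cldn7 (6.11) and Cldn11 (-6.12), for glucose carriers Slc2a2 (3.52) and Slc2a3 (-2.62), and for apolipoproteins Apoa1 (7.60) and Apoe (-3.70). For intermediate filaments they were Krt8 (7.57) and Nefl (-3.68), and for carbonic anhydrases Car4 (2.12, but 1.16 in irradiated organs) and Car2 (-3.70). Other pairs did not split. Tph1 and Tph2, which make serotonin in gut and brain, had 0.42 and -0.15, and their values were near or under the column medians. Mt1, the general metallothionein, was not higher in intestine but had 6424 in intestine, against 21079 in brain, a log2 difference of -1.71 beside -2.65 for Mt3.

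Genes that cells share were closer to even, with exceptions. Of 34 proteasome genes, 4 were higher and none lower, and the median was 0.30. The 4 were the subunits of the immunoproteasome, Psmb9 and Psmb8, at 1246 in intestine, against 61.5 in brain for Psmb9 and 659 in intestine, against 66.6 in brain for Psmb8, with Psmb10 (2.25) and the activator Psme1 (2.59) as log2 differences. Of 45 respiratory chain genes, Sdhd and Uqcrfs1 were higher at 2.47 and 2.17, a count near the share of 3.53% over all genes. None was lower, and the median was 0.32. The count higher was 1 as deposited, 4 with median scaling and 0 in irradiated organs. Of 14 measured ribosomal protein genes, Rps19 was higher at 2.92 and the median was 0.38. A second probe of Rps19 was dim, with a deposited 43.5 in intestine alone, where the lowest deposited value was 36. Among 12 common reference genes the median was 0.04. B2m, the light chain of MHC class I, had 16838 in intestine, against 2619.8 in brain (6.43-fold higher), and Ywhaz had 261 in intestine, against 1288 in brain (4.93-fold lower, but within 4-fold with median scaling). Hprt and Pgk1 had 643 and 1829.5 in intestine, against 1015 and 2338 in brain, whereas the probe of Gapdh was near the lowest values of both columns, at 54.5 in intestine, against 56 in brain.

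Markers of neighbouring organs were read as well. Of 23 hepatocyte genes, 8 were higher in intestine and none lower, with a median of 1.25. In irradiated organs 3 were higher and 1 lower, and as deposited 7 and 1. Pck1, Otc and Cps1, enzymes that enterocytes also make, led at 5.15, 4.95 and 4.55. Alb, albumin, had 2052 in intestine, against 253 in brain, beside 54726 in untreated liver when all 6 columns are put on 1 scale, and Fgg, a chain of fibrinogen, had 294 in intestine, against 71 in brain, beside 17994 in liver. Of 17 pancreatic genes, Zg16 and Clps were higher and none lower, with a median of 0.18. Clps, the cofactor of pancreatic lipase, had 1644 in intestine, against 316 in brain, while Prss2 and Pnlip had 50.5 and 54.5 in intestine, against 50.5 and 63.2 in brain, and Zg16 is a goblet cell product as well. Of 13 adipocyte genes, Fabp4 was higher at 1372 in intestine, against 50.5 in brain (at least 16-fold higher, with 2 genes higher in irradiated organs), with a median of 0.29. Of 7 pituitary genes, Prl, prolactin, had 316 in intestine, against 59.8 in brain (at least 3.68-fold higher), and none passed as deposited. Among lists with little difference, Pvalb of 16 skeletal muscle genes was lower, as was Cryab, a lens protein that glia make too, of 9 eye genes (-2.71), and none of 6 genes of interstitial cells of Cajal and of 3 red blood cell genes passed. The part of other organs in these values was not tested. With the values as deposited, the medians of the pancreatic, adipocyte, pituitary, skeletal muscle, Cajal cell, fibroblast, crypt, choroid plexus, Hox and reference lists changed sign, each from a median of at most 0.41, together with that of the T cell list.

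Probes with a value in a single organ were far more frequent in intestine. The authors removed spots with a low signal-to-noise ratio, and 2840 probes had a value in intestine alone, against 76 in brain alone. Most were dim, with a median deposited intensity of 46.5 in intestine alone and 63.5 in brain alone. In intestine, however, 6 exceeded 10000. Beside the genes named above, Prap1, a proline-rich acidic protein of gut epithelium, had 4767, Dmbt1, a mucosal scavenger receptor, 3999, and Calml4, a calmodulin-like protein of the brush border, 3685. Cftr, the chloride channel of crypt cells, had 536, and the chemokine Ccl5 had 918. Prap1 and Cftr are members of no list and were chosen after their values were seen. The highest value in brain alone was 283, in a probe without a symbol, and Pcdh9, a protocadherin, had 255 and Bdnf, the neurotrophin, 96.5, also chosen after their values were seen. No fold is given for these probes.

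The same organs 3 h after 8.5 Gy offered columns that the choice of this pair had not used. They share their normalization with the untreated columns of each organ, so they are not independent measurements of it. In irradiated organs, 586 genes (3.75%) were at least 4-fold higher in intestine and 636 (4.07%) at least 4-fold lower. Of the 552 genes higher in untreated intestine, 425 (77%) were again past 4-fold and 546 lay on the same side of 0. Of the 627 lower genes, 519 (82.8%) were again past 4-fold and 624 lay on the same side. These 425 and 519 are 425 of 586 and 519 of 636 of the calls in irradiated organs. Across the 15638 genes, which are not independent replicates, the differences in both pairs were correlated, with 0.92 by Pearson's r and 0.82 by Spearman's rho, and the median gap between them was 0.21 on the log2 scale. The side of the difference was thus kept in nearly every called gene, and its call in roughly 4 of 5.

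A few genes depended on which columns were used. Over all genes, 36 had log2 differences at least 2 apart between untreated and irradiated organs. Smdt1, a regulator of the mitochondrial calcium channel, had the largest gap among called genes, with 862 in untreated intestine and 28374 in untreated brain, but 1006 in irradiated intestine and 1092 in irradiated brain. The taste receptors Tas2r126 and Tas2r106 were called in opposite directions in untreated organs (-3.59 and 3.40) and were near 0 in irradiated ones (0.09 and -0.07). Cd79b, a chain of the B cell receptor, had 518 in untreated intestine and 78.2 in untreated brain, but 88.5 in irradiated intestine and 94.2 in irradiated brain. Gadd45a, a gene of the DNA damage response, had 603 in untreated intestine and 138 in untreated brain, but 93.2 in irradiated intestine and 154 in irradiated brain. Cd74 had a log2 difference of 4.36 in untreated and 1.91 in irradiated organs. Each of these genes was read by 1 probe. Smdt1, Tas2r126, Tas2r106 and Gadd45a were chosen after their values were seen.

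**Figure D5:**
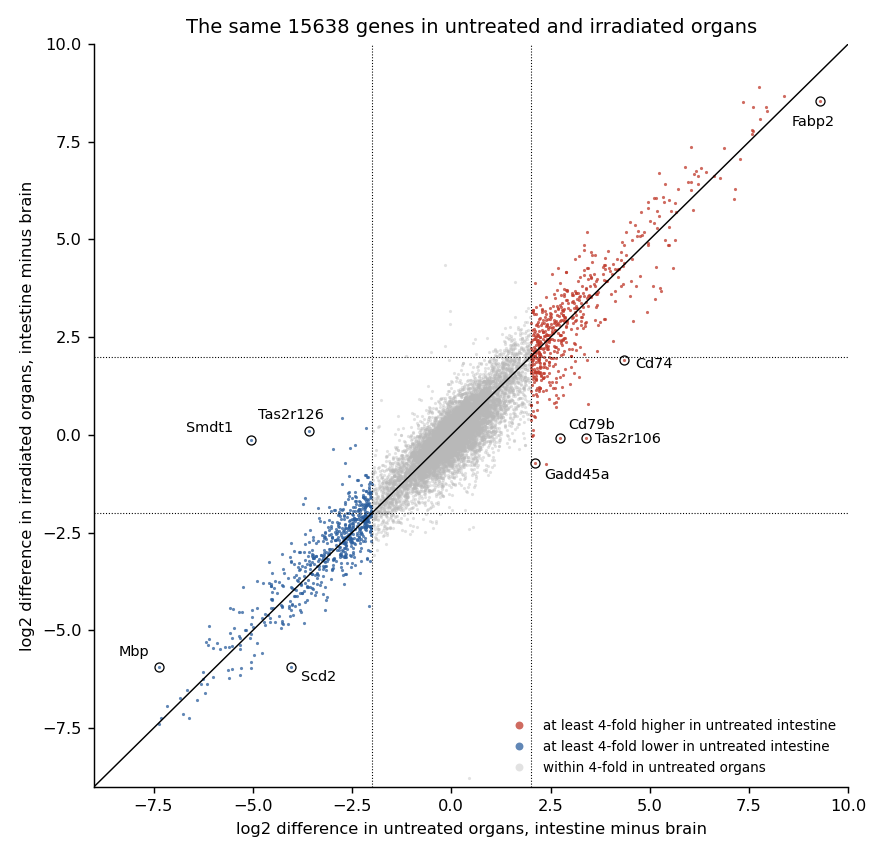
Log2 difference, intestine minus brain, in untreated organs (horizontal) and in organs 3 h after 8.5 Gy (vertical), with 1 point per gene. Red and blue points are the genes at least 4-fold higher and lower in untreated intestine, the solid line marks equal differences, and the dotted lines mark 4-fold. Most coloured points follow the line, while Smdt1 (-5.04 untreated, -0.12 irradiated), Tas2r106 and Cd79b lie near 0 in irradiated organs.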

How the data were processed

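Untreated intestine and untreated brain were compared, with the irradiated pair beside them. Total RNA was labelled with Cy5 and hybridized to a mouse whole-genome OneArray. Per the methods, the authors corrected spots for local background, dropped control spots and those whose signal fell under the noise, and normalized the values in R, and the processing notes name limma. The deposited values are linear spot intensities, 1 column per organ and treatment. The genome build behind the probes is not given in the sources used here. Arrays have no depth, and their number limits the precision. With 1 column a side there was no test, no error and no p-value.

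Probes with a value in both untreated columns were kept (26941 of 29922), the 2 columns were quantile-normalized, and the log2 difference was averaged over the probes of a gene. Symbols were updated through RefSeq GRCm38.p6 (17558 kept, 3410 updated, 52 not held). Genes at least 4-fold apart were called. Named genes were the 15 with the largest difference each way whose probes share its sign, up to 6 members of each list by size and up to 3 against its majority, paralog pairs, list members without a value in an organ, and reference and marker genes. The members and lists were chosen with earlier results of these data known. Alternatives were the values as deposited, median scaling, quantile normalization of all 6 columns, a filter on low signal, a pseudocount, the brightest probe, the lowest brain value for absent probes, the irradiated columns and other fold thresholds. Raising values under the column median to it was chosen after seeing the data. The script was tested on simulated data. Python 3.11.15 with numpy 2.4.6, pandas 2.3.3 and matplotlib 3.10.9 was used.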

Additional observations from a re-analysis of the deposited data

Results flagged for a closer look

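Bright signal was found in probes that had a value in intestine and none in brain, and so lie outside the comparison. The 6 brightest had deposited intensities of 37382, 36357.5, 31153.5 and 29441 in probes without a symbol, 27545.5 in the probe of Itln1 and 17737 in the probe of Ceacam18. In irradiated intestine the Itln1 probe had 9925 and the Ceacam18 probe 42.5.

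Of the genes called in untreated organs, 8 had the opposite sign in irradiated organs, though none passed 4-fold there, and the difference between the pairs was not tested. The log2 differences in irradiated organs were -0.0908 in Cd79b, -0.749 in Cpa6, -0.724 in Gadd45a, -0.027 in Pnpt1 and -0.0746 in Tas2r106, each higher in untreated intestine. They were 0.422 in Cep89, 0.171 in Olfr348 and 0.0908 in Tas2r126, each lower in untreated intestine.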

How the results depend on the processing

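No paired analysis was possible because each organ has 1 untreated column, and no replicate could be left out. At 4-fold, 552 genes were higher and 627 lower in intestine. The lower genes were 942 with the values as deposited, in which brain values were brighter, and the higher genes were 358 with the pseudocount. At 2-fold the counts were 1643 higher and 1607 lower, and at 8-fold 215 higher and 267 lower. With values raised to the median, 477 genes were higher and 538 lower at 4-fold. The counts moved by under 1.5 times with median scaling, quantile normalization of all 6 columns, the filter on low signal, the brightest probe, the lowest brain value, the irradiated columns and values raised to the median. Of 331 named genes measured, 207 were past 4-fold. Of these, 205 had a value under quantile normalization of all 6 columns. Under each of the 9 alternatives in which they had a value, 156 stayed past 4-fold. Of the rest, 35 lost the call with the pseudocount, 25 in the irradiated columns, 19 as deposited, 17 with values raised to the median, 5 with median scaling and 2 with the lowest brain value. Cd79b reversed in the irradiated columns, at -0.0908. The cause was not tested. As deposited, 23 of 50 list medians moved by over 0.5 on the log2 scale and 11 changed sign, and in the irradiated columns 5 changed sign. The signal over background limits the folds: where an organ lay under its column's median, the bound is the fold printed as at least, and the log2 difference and list medians use the measured dim value.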

Other observations

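Gene families outside the lists above were read after the data had been seen. Galectins are lectins that bind sugars on cell surfaces. Of 10 genes with Lgals symbols, 5 were at least 4-fold higher in intestine, also with the values as deposited, and none was lower. Beside Lgals4 and Lgals2 these included Lgals3 at 4202 in intestine, against 80.5 in brain, and Lgals9 at 708 in intestine, against 79.2 in brain. The other was Lgals3bp, which encodes a galectin-binding protein and no galectin, at 631 in intestine, against 118 in brain. Of 9 annexins, Anxa2, which links membranes to actin, had 5729 in intestine, against 112 in brain (51-fold higher), and Anxa4 had 4913 in intestine, against 158 in brain (31-fold higher). The 5 Ywha genes, adaptors of phosphorylated proteins, lay below 0 under each scaling, with 2 past 4-fold (1 with median scaling), and Ywhag had 555 in intestine, against 5205 in brain (9.39-fold lower).

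Of 21 genes of tubulins and of the gamma-tubulin complex (Tubgcp), 1 was higher (2 in irradiated organs) and 6 were lower. No Tubgcp gene was called in untreated organs. Tuba1c had 2081 in intestine, against 91.5 in brain (22.7-fold higher), while Tuba1a, Tuba4a and Tubb2a had log2 differences of -4.78, -4.48 and -4.23, and Tubb3, the tubulin of neurons, -3.84. With the values as deposited 7 tubulins were lower, and with median scaling 4. Of 56 Rab genes, which direct vesicle traffic, 2 were higher and 4 lower, or 9 lower as deposited, beside 3.53% higher and 4.01% lower over all genes. Rab25 and Rab17 had 1183 and 463 in intestine, against 83.8 and 59.8 in brain, whereas Rab3a and Rab6b had 155 and 137 in intestine, against 7416 and 1764 in brain. Of 552 olfactory receptor genes, 1 was called higher and 2 lower. Single genes of no list were also far apart. Crip1, a small zinc-binding protein, had 9484 in intestine, against 127 in brain, and Arg2, a mitochondrial arginase, had 3303 in intestine, against 108 in brain. Ptgds, which makes prostaglandin D, had 79.2 in intestine, against 5444 in brain, and Prkcb, a protein kinase C, had 88 in intestine, against 5014 in brain.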
